A study of Mus musculus with 12 samples.

Results

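The nuclei described here were chosen by a rule on UMI counts meant to find the Dpp4- and Pi16-marked interstitial progenitors of mouse adipose tissue, and 1085 of the 2378 it took also held a mesothelial marker. A UMI is a molecular tag that counts 1 captured RNA molecule. A nucleus first had to be an adipose stem and progenitor cell (ASPC) nucleus. That required at least 3 UMIs summed over Pdgfra, Dcn, Lama2, Col1a1, Col1a2, Col3a1 and Fbn1, and more than over Adipoq, Plin1, Acsl1, Flt1, Ptprb, Mrc1 and Ptprc. A member then held at least 2 UMIs of Dpp4, Pi16, Cd55, Sema3c and Anxa3 together (the A genes), and more of them than of Icam1, Pparg, Col15a1, Lpl and Bmper (the B genes). Of 106898 nuclei kept, 8306 were ASPC nuclei and 2378 of these, 28.6%, were members. The rule read all 24 of these genes, so their levels in members are given as descriptions with no test.

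Adipose tissue holds a stroma of Pdgfra-positive progenitors. Interstitial progenitors lie in the connective tissue sheath around and between fat lobules and are known for Dpp4, a cell surface peptidase, and Pi16, a secreted protein of fibroblasts with stem-like features. They are held to give rise to committed preadipocytes, which express Icam1 and the adipogenic regulator Pparg, and TGF beta and Wnt signals are known to hold them undifferentiated. Dpp4 is also expressed by other cells of tissue borders, and mesothelial cells, the epithelium that covers serous surfaces, share several genes with these fibroblasts.

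The nuclei came from male C57BL/6J mice on normal chow, all unmodified, with 1 library for each of 12 groups. The depots mPRAT and iBAT were sampled at 1, 2 and 6 months at room temperature (22 °C) and at 6 months after 3 days at 4 °C, called cold here. The depot lPRAT was sampled at 2 and 6 months at room temperature, and iWAT at 6 months at room temperature and in cold. The depot abbreviations are those of the labels, which do not spell them out; PRAT usually denotes perirenal fat, iBAT the brown fat between the shoulder blades and iWAT inguinal white fat. The labels give 4, 8 and 16 weeks as the ages of the 1-month, 2-month and 6-month libraries, so the last age is stated in 2 ways. The study set brown and white depots side by side across age and cold. How many animals were pooled in a library is not in the labels, so p-values below measure the spread between single libraries of different groups.

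Libraries held between 5461133 and 87035783 UMIs, and members had a median of 1137 UMIs in the library where they were shallowest, iBAT at 1 month, and 3843.5 where deepest, mPRAT at 6 months. Cold mPRAT stood apart, since 66.0% of its barcodes exceeded 10% mitochondrial UMIs and were left out. Of 117275 distinct barcodes, 1746 occurred in at least 2 libraries and 14 in at least 3. Members numbered 73, 89, 232 and 197 in mPRAT at 1, 2 and 6 months and in cold. In the same order they numbered 35, 37, 102 and 87 in iBAT. There were 257 and 1015 in lPRAT at 2 and 6 months, while iWAT gave 165 at room temperature and 89 in cold. Thus 1 library, lPRAT at 6 months, supplied the largest number.

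The marker check divided the members. A UMI of Msln, Upk3b, Upk1b, Lrrn4, Muc16 or Krt19, 6 mesothelial markers that the rule did not read, was found in 1082 of 1863 members from mPRAT and lPRAT (58.1%). In iBAT and iWAT it was found in 3 of 515. By library the share was 31.5%, 49.4%, 30.6% and 60.9% in mPRAT at 1, 2 and 6 months and in cold, and 41.6% and 70.6% in lPRAT at 2 and 6 months. Other ASPC nuclei of the same libraries held such a UMI in 4.41%, 10.4%, 3.14% and 47.7% in mPRAT and in 21.7% and 31.8% in lPRAT. The 2 shares were closest in cold mPRAT. Marked members were also deeper, and a split on any UMI depends on depth. Their median was 3656, 4054.5, 4621 and 2679.5 UMIs in mPRAT, against 1274, 1675, 3712 and 2251 in members without the mark, and 2108 and 2734 against 1165 and 1587 in lPRAT.

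The 1085 members with a mesothelial UMI carried Dpp4 and Sema3c, and outside cold mPRAT they held little Pi16 or Pdgfra. In cold mPRAT, the library of 120 of them, 29.2% held a Pi16 UMI and 24.2% a Pdgfra UMI. Levels are in CPM, UMIs of a gene per 1000000 UMIs summed over the nuclei of a class in 1 library. Dpp4 (chromosome 2, 62330073 to 62412231, minus strand, GRCm38) stood at 962, 909, 824 and 908 CPM in these nuclei of mPRAT at 1, 2 and 6 months and in cold, and at 601 and 1043 CPM in lPRAT at 2 and 6 months. Pi16 (chromosome 17, 29317680 to 29330593, plus strand) was at 0, 0, 13.9 and 227 CPM in the same mPRAT nuclei and at 70.4 and 23.8 CPM in lPRAT. Pdgfra, the receptor that defines the lineage (chromosome 5, 75152292 to 75198215, plus strand), was at 0, 5.02, 22.3 and 136 CPM in mPRAT and at 10.8 and 19.6 CPM in lPRAT. Both were highest in cold mPRAT, where the mesothelial mark was also common outside the members. Wt1, a transcription factor of mesothelium, ranged from 570 to 1047 CPM over these 6 libraries. Gpm6a, a membrane glycoprotein gene, ranged from 2264 to 5174 CPM.

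Members without a mesothelial UMI, 1293 nuclei, held Pi16 and Pdgfra in every library. Pi16 was at 1155, 561, 672 and 979 CPM in mPRAT at 1, 2 and 6 months and in cold. It was at 777, 435, 866 and 1645 CPM in iBAT in the same order, at 1090 and 535 CPM in lPRAT at 2 and 6 months, and at 208 and 431 CPM in iWAT at room temperature and in cold. Cold iBAT was thus highest and iWAT at room temperature lowest. Pdgfra was at 190, 222, 397 and 337 CPM in mPRAT, 181, 217, 207 and 289 CPM in iBAT, 232 and 528 CPM in lPRAT and 342 and 361 CPM in iWAT. Other ASPC nuclei without such a UMI held Pdgfra at 299 to 668 CPM. The mean was 292 CPM in members and 420 CPM in these other nuclei, so Pdgfra was not a mark of members within the lineage. The rule read Pi16 and Pdgfra, so their presence is no check of the label. Of genes it did not read, Opcml was at 1468 to 7149 CPM without a mesothelial UMI and at 0 to 818 CPM with one, and Creb5 at 2011 to 4731 CPM and 28.0 to 613 CPM. Members with a mesothelial UMI are called mesothelial-marked members below. The name refers only to the 6 marks. Nuclei outside the ASPC class held these marks at 80.4, 240, 17.9 and 260 CPM in mPRAT at 1, 2 and 6 months and in cold. Which cells the marks came from in cold mPRAT was not tested. Each result is given for all members and for members without the mark, and single-gene values refer to the latter unless stated.

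**Figure D1:**
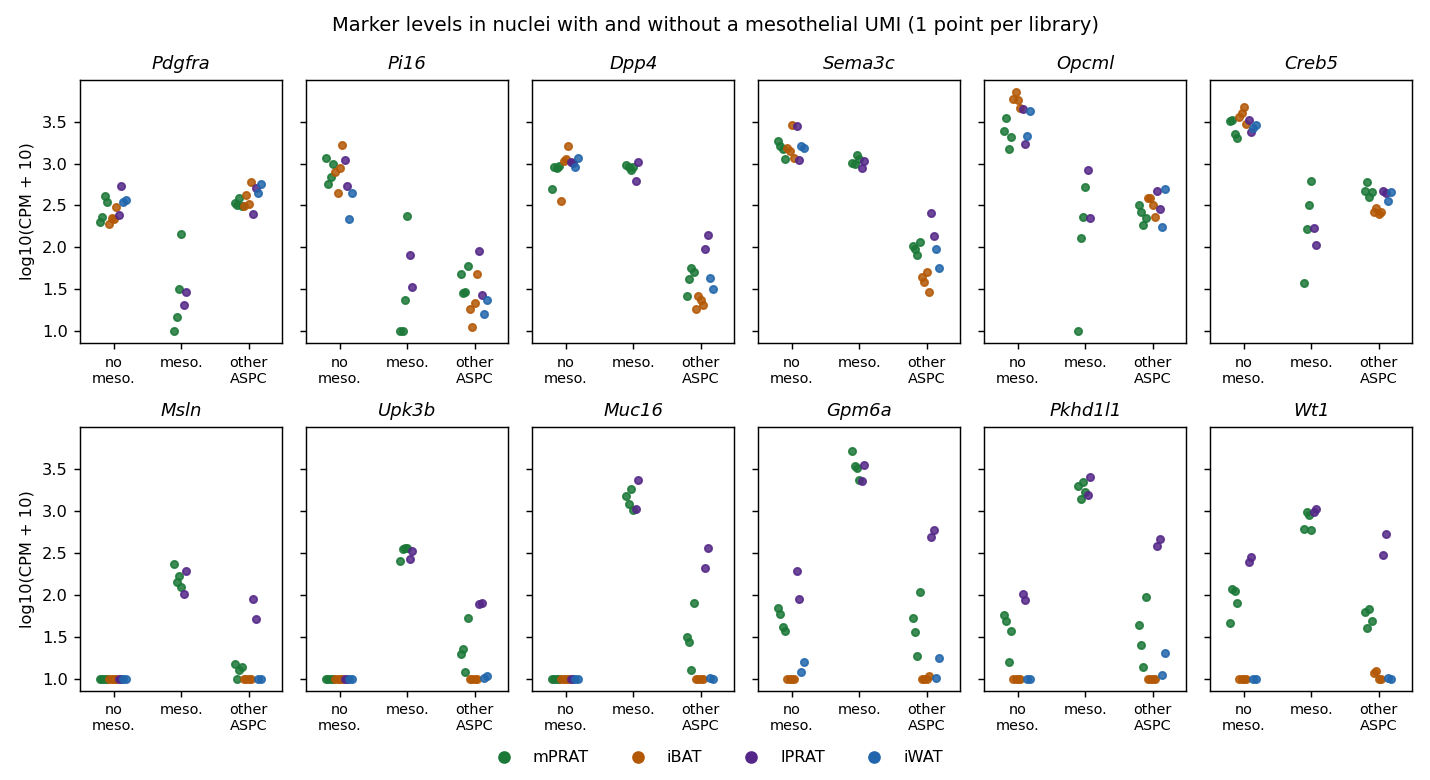
Level of 12 genes (log10 of CPM with 10 CPM added, vertical axis) in members without a mesothelial UMI, members with one and other ASPC nuclei, 1 point per library coloured by depot. Members with the mark are shown for the 6 mPRAT and lPRAT libraries with at least 15 such nuclei; Msln, Upk3b and Muc16 are 0 without the mark by construction. Pi16, Opcml and Creb5 were high without the mark and Gpm6a, Pkhd1l1 and Wt1 with it, while Dpp4 and Sema3c were high in both.

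Dpp4 in members without the mark was at 488, 908, 869 and 931 CPM in mPRAT at 1, 2 and 6 months and in cold, and at 343, 1064, 1123 and 1599 CPM in iBAT. It was at 1035 and 997 CPM in lPRAT and at 897 and 1153 CPM in iWAT. The 1-month libraries of both depots were lowest. Sema3c, a secreted semaphorin (chromosome 5, 17574281 to 17730268, plus strand), ranged from 1077 CPM in lPRAT at 6 months to 2867 CPM in iBAT at 6 months, with a median of 1513 CPM over libraries. Cd55, a complement regulator, ranged from 217 to 753 CPM, and Anxa3, an annexin, from 416 to 868 CPM. Because the rule selected on them, these levels only show how the mix of A genes varied. Cold iBAT, highest for Pi16 and Dpp4, was among the lowest for Sema3c at 1153 CPM, and iWAT at room temperature, lowest for Pi16, held Sema3c at 1613 CPM.

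Detection per nucleus followed the same pattern. At least 1 Pi16 UMI was found in 76.0%, 62.2%, 65.2% and 75.3% of members without the mark in mPRAT, in 62.9%, 45.9%, 62.0% and 89.7% in iBAT, in 68.7% and 38.9% in lPRAT, and in 31.7% and 36.0% in iWAT. Free RNA sets a floor to such shares, and nuclei with adipocyte markers, which should lack Pi16, held a UMI of it in 0.149% to 2.88% of nuclei in 11 libraries. The exception was lPRAT at 2 months, at 16.6%, although its adipocyte-marked nuclei had a median of only 1306 UMIs. Mesothelial-marked members of that library held Pi16 in 14.0% of nuclei, at the level of this background. Dpp4 was found in 66.4% to 91.3% of mesothelial-marked members of the 6 libraries and in 0.0863% to 4.81% of adipocyte-marked nuclei. A class marked by UMIs of Mrc1 and Ptprc can take in other leukocytes besides macrophages, and its cell types were not separated. It held a Dpp4 UMI in 28.5% of nuclei in mPRAT at 6 months and 21.7% of 23 nuclei in iBAT at 2 months. The share was 17.5% in iWAT at room temperature and 3.70% to 10.7% elsewhere. This share exceeded that of adipocyte-marked nuclei in every library except lPRAT at 6 months (3.95% against 4.33%). Outside the ASPC class, mPRAT at 6 months held B cell markers at 1904 CPM and T and NK cell markers at 689 CPM.

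Most members lay clear of the threshold. Of the 2378, 346 held exactly 2 A UMIs and 2032 held 3 or more. The A UMIs came from 1 gene in 297 members, from 2 genes in 825 and from at least 3 genes in 1256. Just outside lay 272 ASPC nuclei with 1 A UMI and fewer B UMIs, and 572 with at least 2 A UMIs that did not exceed their B UMIs. No A UMI was found in 4305 ASPC nuclei. Among the members, 58 (2.44%) had doublet scores among the highest of their library.

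Members were a small share of the ASPC nuclei in iBAT and iWAT and a larger one in mPRAT and lPRAT. In iBAT the share was 9.16% (exact Clopper-Pearson 95% interval 6.46 to 12.5) at 1 month, 7.37% (5.24 to 10.0) at 2 months, 11.7% (9.62 to 14.0) at 6 months and 14.6% (11.9 to 17.7) in cold. In iWAT it was 13.4% (11.5 to 15.4) at room temperature and 12.5% (10.2 to 15.2) in cold. In mPRAT it was 19.8% (15.9 to 24.3), 26.2% (21.6 to 31.2), 29.97% (26.8 to 33.3) and 47.0% (42.2 to 51.9) at 1, 2 and 6 months and in cold. In lPRAT it was 52.8% (48.2 to 57.3) at 2 months and 62.6% (60.2 to 64.9) at 6 months. These intervals cover counting error only, with 1 library per group there was no test, and the B genes of the rule also differed between depots (below).

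Leaving out every ASPC nucleus with a mesothelial UMI kept the order of depots. The shares were then 15.1%, 16.7%, 23.5% and 39.9% in mPRAT, 9.16%, 7.37%, 11.5% and 14.7% in iBAT, 45.5% and 41.9% in lPRAT and 13.4% and 12.6% in iWAT. Thinning each nucleus to 1000 UMIs gave 17.2%, 19.5%, 23.9% and 34.7% in mPRAT, 7.98%, 8.503%, 11.8% and 11.7% in iBAT, 53.6% and 45.9% in lPRAT and 11.3% and 10.1% in iWAT. Between 23 (cold iBAT) and 283 (lPRAT at 6 months) ASPC nuclei of a library were too shallow to be thinned. Cold mPRAT exceeded mPRAT at room temperature by 17.0 percentage points (Newcombe 95% interval 11.1 to 22.9), by 16.4 points (8.70 to 24.3) without mesothelial UMIs, and by 10.8 points (4.15 to 17.5) after thinning. The same cold difference was 2.93 points (-0.659 to 6.64) in iBAT, but -0.184 points (-4.22 to 3.96) after thinning and -0.766 points (-5.82 to 4.11) among nuclei of 1500 to 5000 UMIs. It was -0.886 points (-3.99 to 2.36) in iWAT. From 1 to 6 months the share was 10.1 points higher in mPRAT (4.65 to 15.3), with 6.71 points (-0.510 to 13.1) after thinning, and 2.51 points higher in iBAT (-1.42 to 6.06), with 3.87 points (-1.29 to 8.25) after thinning. Among nuclei of 1500 to 5000 UMIs the age difference was 1.68 points in mPRAT (-7.71 to 10.2) and 7.61 points in iBAT (1.49 to 12.8). In that window iBAT at 1 month had only 9 members. The larger age difference was thus in mPRAT among all nuclei and after thinning, but in iBAT in this window. The intervals overlap, and the cause was not tested. In lPRAT the 6-month share was 9.80 points above that at 2 months (4.69 to 14.9), but 3.60 points below it without mesothelial UMIs (-10.2 to 3.01 for the signed difference of -3.60), and 0.535 points above it (-7.59 to 9.45) among nuclei of 1500 to 5000 UMIs. After thinning the signed lPRAT difference was -7.71 points (-15.3 to -0.00584).

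**Figure D2:**
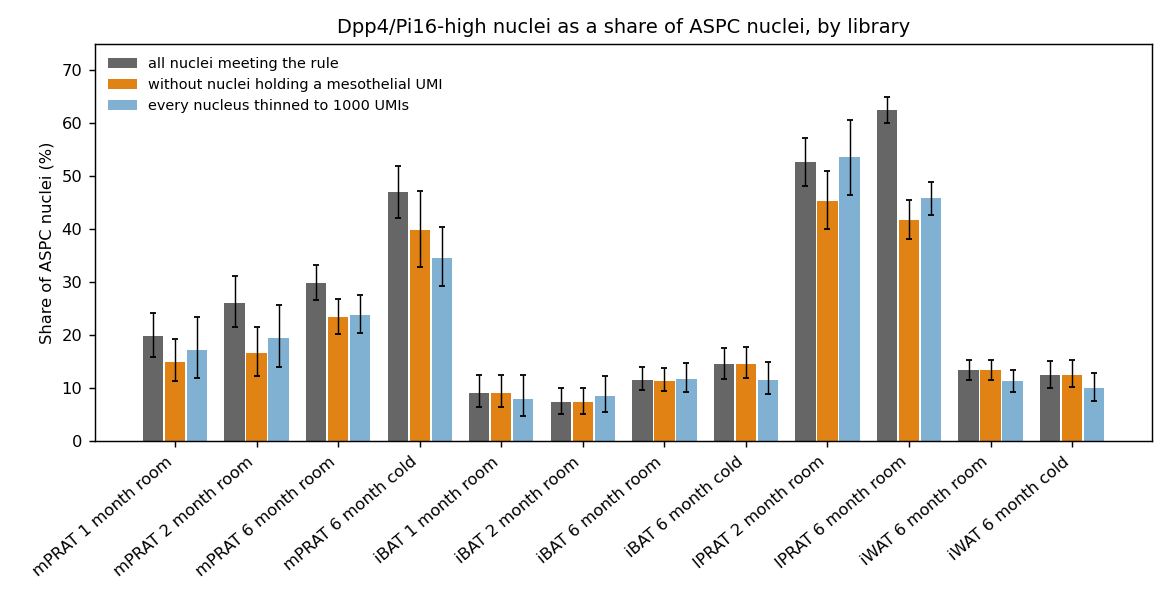
Members as a percentage of ASPC nuclei (vertical axis, from 0) in each of the 12 libraries, for all nuclei, without nuclei that hold a mesothelial UMI, and after thinning to 1000 UMIs; error bars are exact 95% intervals of counting error. All mPRAT and lPRAT bars stand above those of iBAT and iWAT at the same age and temperature.

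The genes that set members apart from other ASPC nuclei were tested outside the 24 rule genes, with UMIs summed per library and class, library as a block, and edgeR's quasi-likelihood test at a Benjamini-Hochberg adjusted p under 0.05. Among 10551 genes tested in all members, 952 were higher (9.02%) and 1037 lower (9.83%). Without nuclei that held a mesothelial UMI, 803 of 9096 genes were higher (8.83%) and 858 lower (9.43%). Both fits called 1182 genes. The median log2 difference of all genes tested was -0.06. Since the same nuclei supplied the rule genes, these tests show how evenly a difference recurred across libraries and not that the classes were found independently.

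Adamts16, a secreted metalloprotease, had the largest difference among members without the mark. Its level was 429, 174, 166 and 21.4 CPM in mPRAT at 1, 2 and 6 months and in cold, 235, 137, 546 and 107 CPM in iBAT, 291 and 124 CPM in lPRAT and 76.5 and 64.1 CPM in iWAT. Other ASPC nuclei held 0 to 17.5 CPM, so the classes did not overlap. The log2 difference was 5.82 ± 0.28 (SE, 12 libraries). At its level in other ASPC nuclei Adamts16 could pass the filter on low counts mainly through the members, so its difference is a description. Opcml, a cell adhesion molecule of the IgLON family (chromosome 9, 27790775 to 28925410, plus strand), separated the classes as clearly. It stood at 2404, 3440, 1468 and 2053 CPM in mPRAT, at 5838, 7149, 5697 and 4590 CPM in iBAT, at 4491 and 1676 CPM in lPRAT and at 2119 and 4211 CPM in iWAT, against 165 to 560 CPM in other ASPC nuclei. Its log2 difference was 3.45 ± 0.16 (edgeR adjusted p = 8.63e-13), higher in 12 of 12 libraries.

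The other genes among the 15 highest were of several kinds. Sema3e, a secreted semaphorin, ranged from 214 to 704 CPM over libraries against 4.89 to 92.5 CPM in other ASPC nuclei (log2 difference 4.23 ± 0.36). Sema3d, of the same class, was higher in 11 of 12 libraries (3.23 ± 0.29). Aldh1a3, an enzyme that makes retinoic acid, was higher by 3.29 ± 0.41 and Adra1b, an alpha-1 adrenergic receptor, by 3.81 ± 0.29. Ano3, of the anoctamin family, was higher by 4.47 ± 0.31 and Kcnk5, a potassium channel, by 3.70 ± 0.29. Gpr1, a chemerin receptor, differed by 4.56 ± 0.38, and Dact2, an intracellular antagonist of Wnt and TGF beta signalling, by 4.23 ± 0.35. Efhd1, a calcium-binding protein, differed by 4.07 ± 0.33, Cadm3, an adhesion molecule, by 3.63 ± 0.23, and Limch1, an actomyosin regulator, by 3.62 ± 0.19. The remaining genes of the 15 were Gm12381 (4.34 ± 0.32), a long noncoding RNA, and 1700019D03Rik (3.26 ± 0.30).

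The 10 lowest genes were of several kinds. Summed mural cell markers were at 7.37 to 273 CPM in members without the mark and at 42.6 to 894 CPM in other ASPC nuclei, lower in members of all 12 libraries. Summed Schwann cell markers were at 0 to 561 CPM and 14.2 to 841 CPM, lower in members of every library except iBAT at 2 months. The part of these cell types in the genes lower in members, here and below, was not tested. Bmp5, a BMP ligand, averaged 1.15 CPM in members and 75.2 CPM in other ASPC nuclei (log2 difference -4.34 ± 0.50) and was lower in 11 of 12 libraries. Ntf3, a neurotrophin, averaged 22.0 against 281 CPM (-3.68 ± 0.24). Heyl, a Notch target gene, averaged 1.57 against 50.1 CPM (-3.96 ± 0.39). Pde11a, a phosphodiesterase, averaged 42.5 against 537 CPM (-3.42 ± 0.22), and Adcyap1r1, the PACAP receptor, 3.29 against 60.9 CPM (-3.30 ± 0.32). At their levels in members, Bmp5, Heyl and Adcyap1r1 could pass the filter on low counts mainly through the other ASPC nuclei, so their differences are descriptions. Spon1, a secreted matrix protein, differed by -3.45 ± 0.34 and Mdga2, a membrane-anchored adhesion protein, by -3.83 ± 0.40. Shisa6 (-3.98 ± 0.32), Spaar (-3.38 ± 0.28) and Olfm2 (-3.31 ± 0.42) completed the 10. All 25 of these genes stayed past the threshold when each of the 12 libraries was left out in turn, with a highest edgeR adjusted p of 4.32e-05. For Adamts16, Bmp5, Heyl and Adcyap1r1 this too is a description, given the limit from the filter on low counts.

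**Figure D3:**
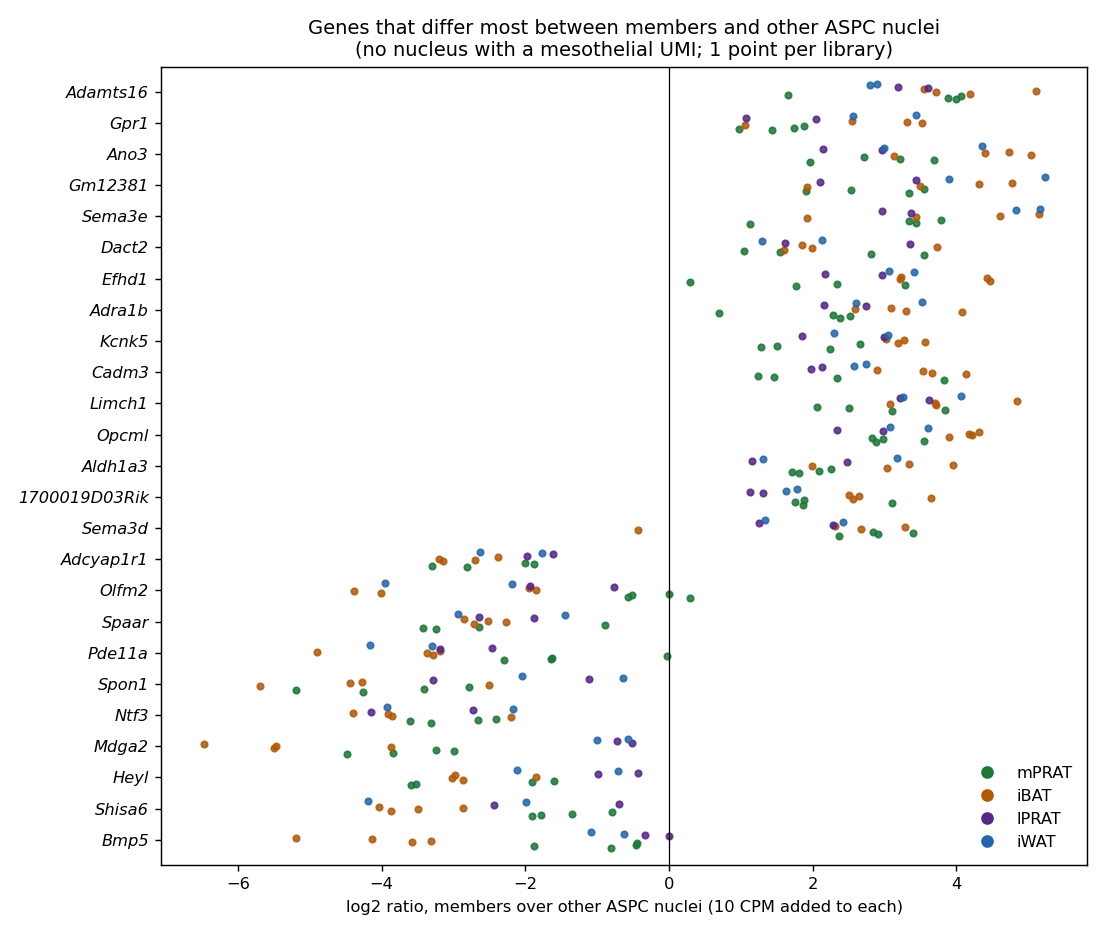
Log2 ratio of members to other ASPC nuclei (horizontal axis, 10 CPM added to both) for the 15 highest and 10 lowest named genes, in nuclei without a mesothelial UMI, 1 point per library coloured by depot. Adamts16, Opcml and Limch1 lie to the right of 0 in all 12 libraries and Ntf3, Heyl and Spon1 to the left.

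Counts for the gene lists are read beside the background of 8.83% higher and 9.43% lower among all genes tested without mesothelial UMIs, where the median was -0.06. The lists were assembled with earlier results of these data known, so they describe the members and are no independent evidence. A list of 20 further genes of interstitial progenitors had 20 of 20 higher, with a median log2 difference of 2.65; in all members it had 18 of the 19 tested. Creb5, a transcription factor of the CREB family, ranged from 2011 CPM in cold mPRAT to 4731 CPM in iBAT at 6 months, against 238 to 644 CPM in other ASPC nuclei (2.91 ± 0.18). Fndc1 (2.70 ± 0.13) and Smpd3, a sphingomyelinase (3.19 ± 0.22), were also higher. Ackr3, a scavenging chemokine receptor, was higher by 2.38 ± 0.17 and Pcolce2, an enhancer of procollagen processing, by 2.51 ± 0.19. Heg1 had the smallest difference (1.26 ± 0.11).

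Of 14 genes of committed preadipocytes, 13 were tested, 10 were lower and 1 was higher, with a median of -1.29. Cxcl14, a chemokine, had the largest difference, at a median of 0 CPM over libraries against 27.3 CPM in other ASPC nuclei (-3.71 ± 0.47). At that level it could pass the filter on low counts mainly through the other ASPC nuclei, so its difference is a description. Col4a1 and Col4a2, chains of basement membrane collagen, were lower by 2.05 ± 0.21 and 1.99 ± 0.21 on the log2 scale. Plin2, a lipid droplet protein, had a log2 difference of -1.60 ± 0.18 and Cd36, a fatty acid transporter, of -0.83 ± 0.21. The gene that went the other way was Ebf2, a transcription factor of brown and beige precursors, at 2192 to 4438 CPM in members and 891 to 2765 CPM in other ASPC nuclei (0.91 ± 0.11). In all members 12 of 13 were lower and none higher. Mesothelial-marked members held Ebf2 at 28.0 to 545 CPM. Of 8 genes of an Fmo2-marked stromal state, 7 were tested, 4 were lower (F3, Mgp, Bgn and Inmt) and 1, Vit, was higher.

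Wnt ligands were higher where they were called. Of 10 ligands, 6 were tested and 4 were higher, none lower. Wnt10b was detected in members of all 12 libraries, at 17.0 to 64.1 CPM with a median of 41.6, against a median of 0.531 CPM in other ASPC nuclei (4.66 ± 0.46). At that level in other ASPC nuclei it could pass the filter on low counts only through the members, so its difference, and with it the count of ligands, is a description. Wnt2 was at 5.35 to 71.4 CPM (2.60 ± 0.45), Wnt9a was higher by 1.48 ± 0.39 and Wnt5b by 0.89 ± 0.31. Of 14 receptors, 7 were tested, with 4 lower (Fzd4, Lrp5, Lrp6 and Ror1) and 2 higher (Ror2 and Lgr4). Lrp5, a Wnt coreceptor, had a log2 difference of -1.29 ± 0.22. Of 19 inhibitors, modulators and targets, 14 were tested, 4 were higher and 5 lower. Secreted inhibitors were among the higher genes, Sfrp4 (2.83 ± 0.33) and Sfrp2 (2.10 ± 0.28), with the intracellular antagonists Dact1 (1.35 ± 0.20) and Dact2. Tcf7l2, a transcription factor of the Wnt pathway, was lower (-0.61 ± 0.12).

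TGF beta and BMP genes moved both ways. Of 30 genes, 24 were tested, 7 were higher and 3 lower. Among ligands, Tgfb2 was at 55.9 to 216 CPM against 15.2 to 75.5 CPM in other ASPC nuclei (1.58 ± 0.21). Bmp6 (2.18 ± 0.29) and Bmp7 (4.31 ± 0.50) were higher too, Bmp7 at 11.6 to 160 CPM. With a difference of that size Bmp7 could pass the filter on low counts mainly through the members, so it is a description. Among receptors Tgfbr2, the type II TGF beta receptor, was higher, at 310 to 664 CPM in members and 154 to 296 CPM in other ASPC nuclei, with no overlap (1.09 ± 0.11). Acvr2a, an activin receptor, was lower (-1.29 ± 0.13), as was the signal transducer Smad3 (-0.87 ± 0.18). Fstl1, a secreted glycoprotein that binds BMPs, was higher by 1.39 ± 0.12.

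Matrix genes moved both ways. Of 34 matrix genes, 32 were tested, 13 were higher and 8 lower, with a median of 0.06. Higher were Col14a1, a fibril-associated collagen, at 309 to 1428 CPM against 14.9 to 224 CPM (3.08 ± 0.24), and Fn1, fibronectin (2.70 ± 0.23). The microfibril genes Mfap5 (2.07 ± 0.20) and Emilin2 (2.14 ± 0.17), which the interstitial list also holds, and the elastin gene Eln (0.67 ± 0.18) were higher. The hyaluronan synthases Has2 (1.59 ± 0.35) and Has1 (4.34 ± 0.66) were called higher, but Has1 was at 0 CPM in 4 libraries and at most 43.9 CPM. Has1 could thus pass the filter on low counts mainly through the members and is a description. Lower were Col6a1, Col6a2 and Col6a3, which form collagen VI, by -0.50 ± 0.13, -0.97 ± 0.18 and -0.98 ± 0.16, and Col5a3 (-1.79 ± 0.16). Thbs1, thrombospondin, was at -2.21 ± 0.43 and Lum, lumican, at -1.29 ± 0.25.

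Of 25 semaphorin and axon guidance genes, 21 were tested, 5 were higher and 7 lower, with a median of -0.32. Ligands Sema3b (1.85 ± 0.35), Sema3d and Sema3e and the ephrin Efna5 (1.69 ± 0.18) were higher, with the Slit receptor Robo1 (1.13 ± 0.17). Lower genes included Plxnd1, a receptor of Sema3e, at 0 to 19.1 CPM against 22.5 to 104 CPM (-2.00 ± 0.26), and Nrp1 (-0.95 ± 0.13). At its level in members Plxnd1 could pass the filter on low counts mainly through the other ASPC nuclei, so its difference is a description. Slit2 (-1.25 ± 0.35), Robo2, Unc5c, Epha7 and Sema5a were also lower. Of 16 cytokine and complement genes, 10 were tested, with Il33 (1.47 ± 0.43), Csf1 (0.64 ± 0.12) and C3 (0.54 ± 0.18) higher and the chemokine Cxcl12 (-1.27 ± 0.24) lower. Of 7 proliferation genes only Top2a was tested and it did not pass (-0.83 ± 0.65, edgeR adjusted p = 0.463).

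**Figure D4:**
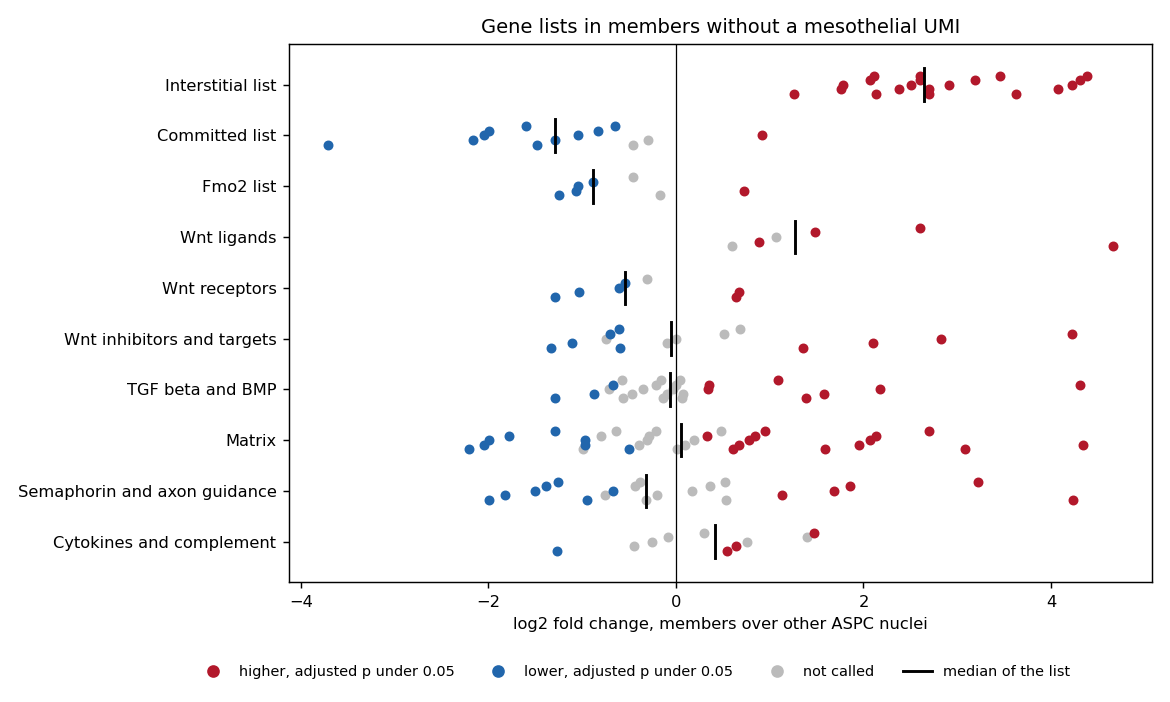
Log2 difference between members and other ASPC nuclei (horizontal axis) for the tested genes of each list, in nuclei without a mesothelial UMI. Each point is 1 gene, red where called higher, blue where called lower and grey where not called, and the black bar is the list median, 2.65 for the interstitial list and -1.29 for the committed list.

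The comparison with the 4516 ASPC nuclei whose B UMIs were at least 2 and exceeded their A UMIs gave a similar picture. It called 2061 of 9866 genes in all members (20.9%) and 1624 of 7770 without mesothelial UMIs (20.9%). Adamts16 (6.53 ± 0.29), Sema3e (5.15 ± 0.37) and Ano3 (5.02 ± 0.31) were the highest. The limit from the filter on low counts given above for Adamts16 holds here too. Smpd3 (3.82 ± 0.23) and Tmem100, a membrane protein gene (3.53 ± 0.28), entered the 15 highest. All 18 tested genes of the interstitial list were higher, with a median of 2.83. The B-high nuclei are part of the other ASPC nuclei, so the comparisons share nuclei.

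Because ASPC nuclei were chosen without the A and B genes, the levels of these 10 genes over all ASPC nuclei of a library are free of the member rule. In bulk sums like these, fewer nuclei of a type and less RNA per nucleus cannot be told apart. An additive edgeR fit of depot and condition to 12 libraries called 10 of the 50 differences read for the 10 genes in 5 contrasts. Across all 12038 genes, 1578 were called between mPRAT and iBAT (13.1%), 374 between lPRAT and mPRAT (3.11%) and 517 between iWAT and iBAT (4.29%). For cold 10 were called (0.0831%) and for 6 months against 1 month 5 (0.0415%). With 1 library left out these counts ran from 1005 to 1735, from 89 (without lPRAT at 6 months) to 417, from 52 (without iWAT at room temperature) to 641, from 1 to 45 and from 1 to 81 in the same order, the last 2 highest without lPRAT at 2 months. Without nuclei that held a mesothelial UMI, 955 of 11617 were called between mPRAT and iBAT (8.22%), 304 between lPRAT and mPRAT (2.62%) and 46 for age (0.396%).

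Between mPRAT and iBAT, 3 of 5 A genes were higher in mPRAT in all ASPC nuclei and 2 of 5 without mesothelial UMIs. Of the 5 B genes 4 were lower and 1 higher in all ASPC nuclei, and 2 lower and 1 higher without. Pi16 (1.17 ± 0.34, edgeR adjusted p = 0.0592 without the mark) and Cd55 (0.84 ± 0.33, edgeR adjusted p = 0.156) passed in neither. Without mesothelial UMIs Dpp4 was at 99.1 CPM (exact Poisson 95% interval 73.1 to 131), 205 (167 to 248), 248 (229 to 267) and 389 CPM (334 to 451) in mPRAT at 1, 2 and 6 months and in cold. In iBAT it was at 38.1 (24.4 to 56.7), 115 (94.6 to 139), 135 (117 to 155) and 182 CPM (163 to 202). Dpp4 was higher in mPRAT in each of the 4 matched pairs, by a log2 difference of 1.02 ± 0.17 (edgeR adjusted p = 0.0038), against 1.67 ± 0.21 in all ASPC nuclei. Anxa3 was higher by 1.09 ± 0.17 in all ASPC nuclei and 0.89 ± 0.21 without the mark. Sema3c was higher by 1.43 ± 0.29 in all ASPC nuclei and was not called without the mark. Pparg, the master regulator of adipogenesis, was lower by 1.51 ± 0.21 on the log2 scale in all ASPC nuclei. Without the mark it stood at 331 to 452 CPM in mPRAT and 841 to 1292 CPM in iBAT, with no overlap. Col15a1, a basement membrane collagen, had a log2 difference of -1.66 ± 0.24, Bmper, a BMP-binding secreted protein, of -1.46 ± 0.32 and Lpl, lipoprotein lipase, of -0.94 ± 0.22 in all ASPC nuclei. Bmper and Lpl were not called without the mark. Icam1, an adhesion molecule, went against the other B genes, with 1.35 ± 0.31.

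In lPRAT, the ASPC nuclei without the mark held Dpp4 at 625 CPM (556 to 701) at 2 months and 477 CPM (442 to 513) at 6 months, above every mPRAT library. The difference from mPRAT was 1.16 ± 0.21 on the log2 scale for Dpp4 and 1.19 ± 0.26 for Anxa3, both called without the mark and neither with all ASPC nuclei. Col15a1 was called only in all ASPC nuclei (-1.85 ± 0.33). Sema3c reached 1682 CPM in lPRAT at 2 months and 515 CPM at 6 months, against 394.5 to 500.15 CPM in mPRAT. In iWAT, Icam1 was higher than in iBAT (1.67 ± 0.33), while Dpp4 lay at 116 CPM (106 to 126) at room temperature and 149 CPM (131 to 170) in cold, within the iBAT range. From 1 to 6 months Dpp4 was higher without the mark (1.38 ± 0.25, edgeR adjusted p = 0.04), but not in all ASPC nuclei (0.91 ± 0.29, edgeR adjusted p = 0.242). None of the 10 genes was called for cold. Pi16 had the largest cold difference of the A genes, at 430.6 against 177 CPM in mPRAT, 211 against 105 CPM in iBAT and 61.2 against 25.4 CPM in iWAT, with cold higher in all 3 pairs (1.43 ± 0.36, edgeR adjusted p = 0.136).

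**Figure D5:**
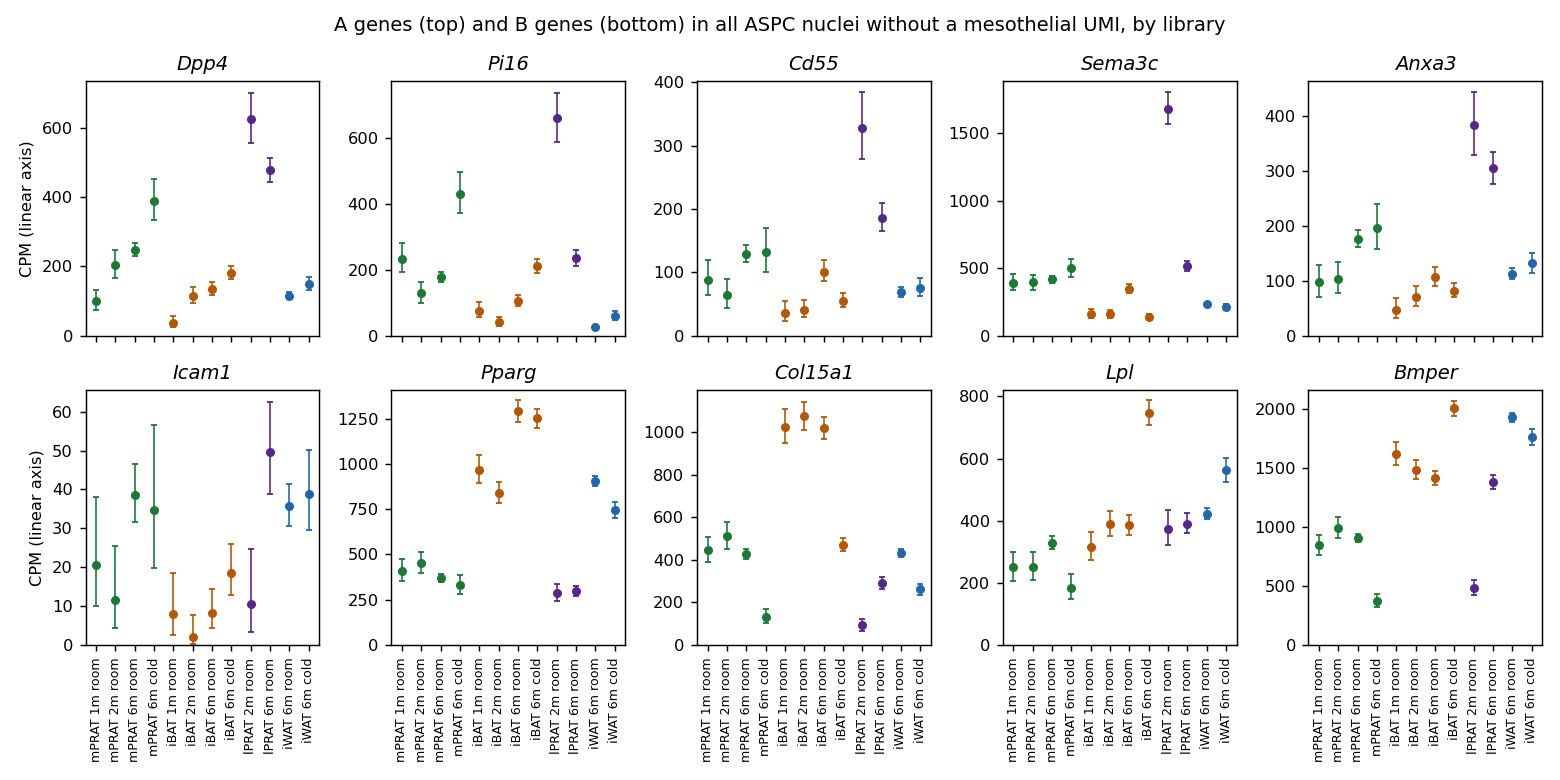
Level of the 5 A genes and the 5 B genes (CPM, vertical axis) over all ASPC nuclei without a mesothelial UMI in each of the 12 libraries, with exact Poisson 95% intervals of counting error. Pparg and Col15a1 are lower in mPRAT and lPRAT than in iBAT at the same age and temperature, and Dpp4 is highest in the lPRAT libraries.

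Among members, the most genes were called between mPRAT and iBAT, the depots matched in every condition. The other contrasts had fewer matched libraries, so their counts are not directly comparable. Between mPRAT and iBAT, 822 of 6331 genes differed in all members (13%), 538 higher in mPRAT and 284 lower. Without the mark 206 of 5060 did (4.07%), 126 higher and 80 lower, and 161 were called in both. In all members the highest genes were those of mesothelium, Gpm6a, Pkhd1l1, Muc16 and Wt1, with no UMI in iBAT. Against the limit that 3 UMIs over the iBAT members allow, they were at least 269-fold, 158-fold, 117-fold and 71.7-fold higher. With no UMI in iBAT they could pass the filter on low counts only through other depots, so these bounds are descriptions. The summed mesothelial markers were at 1123 to 1692 CPM in mPRAT members and at 0 to 51.6 CPM in iBAT members. On the other side lay genes of muscle fibres, such as Atp2a1 and Myh4. Summed muscle markers (Ttn, Neb, Ryr1 and Trdn) were at 15380, 3272, 2251 and 0 CPM in iBAT members at 1, 2 and 6 months and in cold, and at 3.31 to 36.6 CPM in mPRAT members. In iBAT these UMIs sat in 1, 1 and 3 nuclei with more than 1 of them, and their part in other results was not tested beyond leaving such nuclei out.

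Without the mark, Slit2, a secreted guidance cue, was at 71.4, 126, 150 and 64.2 CPM in mPRAT members at 1, 2 and 6 months and in cold, and at 18.1, 0, 6.27 and 0 CPM in iBAT. The groups did not overlap, and the log2 difference was 4.49 ± 0.63. Plxna4, a semaphorin receptor, was at 155, 184, 83.8 and 112 CPM against 18.1, 0, 18.8 and 0 CPM (3.79 ± 0.61), and mesothelial-marked members of mPRAT held it at 1138 to 2465 CPM. Unc5c, a netrin receptor, had 143 UMIs in mPRAT members and 0 in iBAT, at least 22.5-fold higher against 3 UMIs over the iBAT members. Unc5d, of the same family, was at least 16.7-fold higher on the same basis and Hgf, hepatocyte growth factor, at least 14.4-fold. The noncoding B130024G19Rik and Myh11, a smooth muscle myosin of mural cells, also had no UMI in iBAT and were at least 18.0-fold and 17.4-fold higher. Slit2, Plxna4, Unc5c, Unc5d, Hgf, B130024G19Rik and Myh11 could pass the filter on low counts only through depots other than iBAT. Their differences are thus descriptions. With 1 library left out, Unc5c and B130024G19Rik passed in 12 of 12 fits. Unc5d passed in 9 of the 10 fits that tested it, Hgf in 8 of 10 and Myh11 in 7 of 8. Other ASPC nuclei of mPRAT held Hgf at 172 to 535 CPM and those of iBAT at 6.96 to 31.8 CPM.

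Wt1 stayed higher in mPRAT without the mark, at 35.7, 106, 101 and 69.5 CPM, and was at 236 and 269 CPM in lPRAT. No UMI was found in iBAT or iWAT, and mPRAT was at least 15.1-fold higher than iBAT. Gpm6a, which was not among the 6 marks, was at 26.7 to 59.5 CPM in these mPRAT members and at 79.2 to 180.5 CPM in lPRAT; the part of mesothelial RNA in the Wt1 level is not settled by that value. With nuclei holding UMIs of Gpm6a, Pkhd1l1 or Bnc1 or more than 1 muscle UMI also left out, a setting added after the data were seen, 197 genes were called and 165 of them were among the 206. Wt1 still passed then (edgeR adjusted p = 0.00122). With no UMI in iBAT its fitted size is not a measurement, and it could pass the filter on low counts only through other depots.

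Fmo2, a flavin monooxygenase that marks another stromal state, was at 464, 416, 143 and 1032 CPM in mPRAT members and 0, 0, 6.27 and 132 CPM in iBAT (3.60 ± 0.50, edgeR adjusted p = 0.000583). Inmt, an N-methyltransferase (2.36 ± 0.58), and Vit (1.75 ± 0.39) of the same list were higher as well, making 3 of 5 tested. Sfrp4 (2.56 ± 0.60) and the secreted Wnt inhibitor Dkk2 (2.23 ± 0.58) were higher in mPRAT. Rspo3, which potentiates Wnt signals, was lower there, at 23.8, 19.3, 27.9 and 26.7 CPM against 36.2, 183, 119 and 137 CPM (-2.29 ± 0.52). Of 18 tested interstitial list genes, 3 were lower in mPRAT members, Opcml (-1.40 ± 0.24), Fndc1 (-1.51 ± 0.21) and Limch1 (-1.10 ± 0.26), with a list median of -0.62 against 0.01 over all genes. In all members 10 of 17 were lower. Leaving out cold mPRAT, 77 genes were called between mPRAT and iBAT without the mark and 442 in all members.

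Between lPRAT and mPRAT, 38 of 6331 genes differed in all members (0.6%), 3 higher and 35 lower, and 38 of 5060 without the mark (0.751%), with 21 called in both. Of these, 20 of the 38 and 24 of the 38 stood, in the group with the higher level, at 50 CPM or more and no lower in members than in nuclei outside the ASPC class. Ppara, a nuclear receptor of brown adipocytes and other fat-burning cells, was called lower without the mark (-2.86 ± 0.61). Cidea (-6.09 ± 1.20), Esrrg (-4.20 ± 0.57), Prdm16 (-3.54 ± 0.64) and Ppargc1b (-2.90 ± 0.48), which brown adipocytes also express, were called lower too. All of these genes fall outside the rule for named genes and were picked out after their values were seen. In mPRAT at 1 and 6 months these members held Ppara at 762 and 63.2 CPM, and nuclei outside the ASPC class held it higher, at 3662 and 1172 CPM. Summed adipocyte markers (Adipoq, Plin1, Acsl1, Cidec and Lipe), not particular to brown adipocytes, were at 241 to 464 CPM in these mPRAT members. They were at 313 to 337 CPM in lPRAT, and the part of adipocyte RNA in the result was not tested. Higher in lPRAT without the mark were Pdzrn4 (3.00 ± 0.63), Kcnc2, a potassium channel (2.46 ± 0.48), and Tmtc2 (1.36 ± 0.29). Lsamp, an adhesion molecule of the same IgLON family as Opcml, was at 22.1 and 3.30 CPM in lPRAT and at 119, 570, 542 and 722 CPM in mPRAT (-5.57 ± 0.90). Fmo2 was lower too, at 29.5 and 29.7 CPM (-3.00 ± 0.58). Unc5c (-4.47 ± 0.87), Syt1, a synaptotagmin (-5.64), Col4a3, a basement membrane collagen, Nrg2, a neuregulin, Syndig1 and Gm29683 were lower as well. With nuclei holding UMIs of Gpm6a, Pkhd1l1 or Bnc1 or more than 1 muscle UMI also left out, Pdzrn4 was not tested. Unc5c (edgeR adjusted p = 0.0562) and Nrg2 (edgeR adjusted p = 0.0721) then did not pass. The calls of Pdzrn4, Kcnc2, Tmtc2, Lsamp, Unc5c, Syt1, Col4a3, Nrg2, Syndig1, Gm29683 and Cdh19 all depended on lPRAT at 6 months. With that library left out, only lPRAT at 2 months remained, and the log2 difference of Syt1 turned from -5.64 to 2.15. Nrg2 passed in 5 of the 12 fits that left out 1 library. Cdh19, a cadherin of Schwann cells, had 0 UMIs in lPRAT and was at least 29.8-fold lower. Like Syndig1, which also had 0 UMIs there, it could pass the filter on low counts only through other depots. Summed Schwann markers were at 0 to 135 CPM in mPRAT members and 3.30 to 3.68 CPM in lPRAT, and their part in the result was not tested. The count rested on lPRAT at 6 months, without which 1 gene was called without the mark and 0 in all members.

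Between iWAT and iBAT, 26 of 6331 genes differed in all members (0.411%) and 33 of 5060 without the mark (0.652%), 12 higher and 21 lower, with 20 called in both. In the group with the higher level, 12 of the 26 and 11 of the 33 stood at 50 CPM or more and no lower in members than in nuclei outside the ASPC class, and the genes named below are from these. Hoxc5, a homeobox gene of body position, was at 93.5 and 128 CPM in iWAT members and at 0, 0, 0 and 15.2 CPM in iBAT (4.35 ± 0.85). It showed the same depot difference outside the ASPC nuclei, with means of 83.4 and 3.84 CPM. Nrep was at 119 and 117 CPM in iWAT members and at 15.2 to 22.9 CPM in iBAT (2.91 ± 0.53), though other ASPC nuclei held it at 226 and 237 CPM in iWAT and 41.6 to 155 CPM in iBAT. Gria3, a glutamate receptor subunit (4.33 ± 0.83), and Nxph1, a secreted neurexin ligand (3.97 ± 0.78), were higher. Gpc3, a glypican that binds growth factors, was lower, at 53.1 and 23.3 CPM in iWAT against 199, 275, 395 and 249 CPM in iBAT (-2.88 ± 0.45), and stood at 452 to 1011 CPM in mPRAT. Pcsk6, a proprotein convertase, was lower (-1.58 ± 0.33). Hoxc5 passed in 6 and Gpc3 in 10 of 12 fits that left out 1 library. No gene was called without iWAT at room temperature, and with at least 40 nuclei in every sum 4 were called in all members.

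The test for cold in members called few genes. No gene of 6331 passed in all members (0%) by edgeR. An unadjusted p under 0.05 was found for 320, about as many as that threshold gives with no change, and DESeq2 called 2. Without the mark 2 of 5060 passed (0.0395%), both near the threshold. Rcan2, a regulator of calcineurin, went from 482 to 1064 CPM in mPRAT, from 339 to 1320 CPM in iBAT and from 470 to 1252 CPM in iWAT members at 6 months. All 3 cold libraries lay above all 9 at room temperature, and the log2 difference was 1.45 ± 0.22 (edgeR adjusted p = 0.0374). Other ASPC nuclei held it at 117 and 293 CPM, 77.01 and 194 CPM, and 117 and 325 CPM in the same pairs. Col5a3, a collagen V chain, went from 135 to 16.0 CPM in mPRAT, from 176 to 35.5 CPM in iBAT and from 217 to 75.7 CPM in iWAT (-2.21 ± 0.37, edgeR adjusted p = 0.0496). Rcan2 passed in 6 of 12 fits that left out 1 library and Col5a3 in 7 of 12, and both failed without either 6-month mPRAT library.

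Whether cold acted differently on members and other ASPC nuclei could not be resolved with 6 libraries. The interaction of class with cold, fitted to the 6 libraries at 6 months, called 0 of 10626 genes (0%) by edgeR, and 0 by DESeq2. An unadjusted p under 0.05 was found for 285, fewer than that threshold gives with no change. In cold mPRAT, which stood apart, the genes with the largest ratio to room temperature in all members were Sprr1a (156 against 0.962 CPM), Tmprss2 (129 against 1.92 CPM), Upk1a (96.0 against 0.962 CPM) and Upk3a (92.6 against 0.962 CPM). These are genes of urinary and other epithelia, and nuclei outside the ASPC class of that library held them at 180, 261, 77.2 and 73.2 CPM. Summed epithelial markers were at 161 CPM in cold mPRAT members and 16.3 CPM at room temperature. The genes lowest in cold were Fgf14 (6.86 against 375 CPM), Dock2, a regulator of leukocyte migration (0 against 218 CPM), and Slc35f1 (1.71 against 201 CPM). Inpp4b (10.3 against 288 CPM) and Bank1, a B cell adaptor (1.71 against 157 CPM), followed. Outside the ASPC class these genes stood, in that order, at 564, 123, 3.63, 42.7 and 35.1 CPM in cold. At room temperature they stood there at 1297, 1202, 5.16, 893 and 1407 CPM. Summed B cell markers were at 3.43 CPM in cold mPRAT members and 248 CPM at room temperature, and T and NK cell markers at 3.43 and 132 CPM. The part of these cell types in the result was not tested.

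Age called 4 of 6331 genes in all members (0.0632%) and 6 of 5060 without the mark (0.119%), all lower at 6 months than at 1 month. Gm48099, a long noncoding RNA, averaged 2.94 CPM at 6 months and 158 CPM at 1 month (-5.87 ± 0.72) and passed in 12 of 12 fits that left out 1 library. At its level at 6 months Gm48099 could pass the filter on low counts mainly through other libraries, so its difference is a description. Nuclei outside the ASPC class showed the same difference, 3.86 against 91.9 CPM. Col8a1, a short-chain collagen, averaged 35.3 against 277 CPM (-3.29 ± 0.58) and passed in 8 of 12 such fits, failing without mPRAT at 1 month, at 6 months or in cold or iBAT at 1 month, with an edgeR adjusted p of up to 0.546. Mylk4, a muscle kinase, and Rbfox1 and Sox6, regulators that muscle also expresses, were called as well. Sox6 was at 0.28 on the log2 scale (edgeR adjusted p = 0.899) once nuclei with more than 1 muscle UMI or a UMI of the wider mesothelial list were left out. Rbfox1 and Mylk4 were then not tested, as too few UMIs were left.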

How the data were processed

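Nuclei sorted with 7-AAD from 12 mouse adipose samples were sequenced with the 10x 3′ chemistry, per the labels' protocols. The authors deposited UMI counts per gene and barcode, made with Cell Ranger 7.0.0 per the file headers; the submitters' processing notes name the build mm10. Whether intronic reads were counted is not given in the sources used here. Gene positions are those of GENCODE M21 on GRCm38.

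Barcodes were kept from 300 detected genes upward if mitochondrial genes held no more than 10% of UMIs. The members, lists and tests were chosen with earlier results of these data known. Counts were summed per library and class where a class had at least 15 nuclei, normalized by TMM, filtered by filterByExpr and tested with edgeR 4.0.16 (glmQLFit and glmQLFTest, R 4.3.3) at a Benjamini-Hochberg adjusted p under 0.05. DESeq2 1.42.0 was an alternative. A gene with few UMIs in the lower group could pass the filter on low counts mainly through the higher group. Such differences are descriptions, also where that is not repeated for a gene. Comparisons of classes had library as a block. Condition and depot contrasts came from 1 additive fit with 5 residual degrees of freedom, in which the depots serve as repeats of a condition. The fits were tested on simulated data. Intervals cover counting error only; UMIs of 1 nucleus share their library.

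Doublets were scored with scrublet in scanpy 1.11.5 and kept in; an alternative leaves out the highest scores, 0.8% per 1000 nuclei. Named genes had an adjusted p under 0.05 and at least 50 CPM in the higher group. Between classes they were the 15 highest and 10 lowest with the same direction in at least 9 of 12 libraries. In contrasts they were the 8 largest differences each way whose level in members was no lower than in nuclei outside the ASPC class. Between pairs of libraries they were the 5 largest log2 ratios each way, with 10 CPM added and at least 20 UMIs. Genes outside these rules are named as members of the fixed lists or said to be picked after their values were seen. Some genes that these rules pick, among them muscle genes, are covered only by their counts or marker sums.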

Additional observations from a re-analysis of the deposited data

Results flagged for a closer look

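Barcodes above 10% mitochondrial UMIs lie outside every comparison. In cold mPRAT, 49 of 7353 such barcodes met the rule for members, against 7 of 237 in mPRAT at 6 months at room temperature, and the higher number drew attention. Of the 49, 30 held a mesothelial UMI. The counts were 82 in lPRAT at 2 months and 39 at 6 months.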

How the results depend on the processing

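Each comparison of members was refitted under other settings, and the cause of each difference given here was not tested. The library is the block that pairs classes: with no replicate block, 986 genes passed between members and other ASPC nuclei and 1132 against B-high nuclei. With no filter on low counts, 112 genes passed for cold, 88 for age, 214 between lPRAT and mPRAT, 176 between iWAT and iBAT, 33 for the interaction, and 22 A and B differences. DESeq2 called 2 genes for cold, 10 for age in all members and 10 without the mark, and 44 between iWAT and iBAT; its size factors in edgeR left 1 for cold without the mark. Without mesothelial UMIs, 2 passed for cold and 206 between mPRAT and iBAT, and with the wider leave-out added after seeing the data 9 and 197. A 5% mitochondrial limit gave 1 for cold. With at least 40 nuclei per sum, 413 passed between mPRAT and iBAT and 4 between iWAT and iBAT. The share of lPRAT members at 6 months minus 2 months was -7.71 points after thinning, -3.60 without mesothelial UMIs and -3.82 with the wider leave-out, against 9.80 as reported; that of cold mPRAT minus room temperature was 10.8 points after thinning.

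With 1 library left out, all members gave 0 to 16 genes for cold (16 without either lPRAT library), 1 to 9 for age (1 without mPRAT at 1 month), and 442 to 892 between mPRAT and iBAT (442 without cold mPRAT, 543 without cold iBAT). They gave 0 to 55 between lPRAT and mPRAT (0 without lPRAT at 6 months, 16 without cold mPRAT, 22 without mPRAT at 6 months) and 0 to 48 between iWAT and iBAT (0 without iWAT at room temperature, 1 without iBAT at 6 months). Without the mark the ranges, added after seeing the data, were 0 to 26, 2 to 16, 77 to 233, 1 to 54 and 0 to 40 in the same order. There, leaving out cold iBAT gave 114 between mPRAT and iBAT, mPRAT at 6 months 118 and iBAT at 6 months 130. The interaction gave 0 to 0 genes, and 0 to 1 without the mark. Where an arm is left with 1 library, that library is assumed to vary like the others. Over all refits of the genes named in depot contrasts, 27 values between mPRAT and iBAT, 53 between lPRAT and mPRAT and 75 between iWAT and iBAT missed the threshold, settings that leave out nuclei included. Without the mark, signs turned for Syt1 (2.15 against -5.64, without lPRAT at 6 months) and, without iWAT at room temperature, for the muscle genes Neb (4.21 against -4.91) and Trdn (3.65 against -4.77). With 35 and 37 members in iBAT at 1 and 2 months, a gene at a few CPM could not be detected there.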
